A study of Mus musculus with 12 samples.

Results

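The nuclear-encoded subunits of respiratory complexes II to V, together with cytochrome c, form a set of 47 genes among the 22180 that had a probe set with exactly 1 gene symbol on the Mouse Gene 2.0 ST array. They were defined by symbol: Sdha, Sdhb, Sdhc, Sdhd, Cyc1, Cycs and every symbol that begins with Uqcr, Cox4, Cox5, Cox6, Cox7, Cox8 or Atp5, without pseudogenes, each gene being read from the probe set with the highest mean over the 12 arrays. The set was chosen with earlier results of these data known. Complex II (succinate dehydrogenase) had 4 members, complex III (cytochrome bc1 complex) 8, cytochrome c 1, complex IV (cytochrome c oxidase) 17 and complex V (ATP synthase) 17. Uqcr10 and Cox6c had only probe sets shared with a predicted gene and were left out, as were 2 pseudogenes, Atp5c1-ps and Uqcrh-ps1.

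The study asked what the MSL and NSL complexes, which share the histone acetyltransferase Mof, do in embryonic stem cells of the mouse (mESCs), here the male E14.wt line of strain 129P2/OlaHsd. Experiment A set cells infected with a lentivirus for a short hairpin RNA (shRNA) against Msl1 (shMsl1_A) against cells given a non-target shRNA (shcontrol_A), and experiment B set cells given an shRNA against Nsl1 (shNsl1_B) against non-target cells of its own (shcontrol_B), with 3 arrays in each of the 4 groups. All groups came from the same line, carried a puromycin-selectable pLKO.1 vector, and were grown on CD1 feeder cells before a passage without them. Each knockdown (KD) rests on 1 shRNA clone. The labels give no time after infection, while the methods place the work on KD cells a few days after infection, once puromycin selection had begun. The protein called Nsl1 by the study is encoded by Kansl1.

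Complexes II, III and IV pass electrons from succinate and coenzyme Q to oxygen, cytochrome c carries them between complexes III and IV, and complex V uses the resulting proton gradient to make ATP in the inner mitochondrial membrane. All subunits of complex II and most of those of the other complexes come from nuclear genes, while a few core subunits of complexes III, IV and V come from mitochondrial DNA and are translated by the mitochondrial ribosome. Nuclear respiratory factor NRF1 and the ETS-family factor GABP (NRF2) are known activators of many of these genes, and embryonic stem cells are known to lean on glycolysis more than most differentiated cells do.

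Promoter sequence was available in the RefSeq table used here (mouse build GRCm38.p6) for 36 of the 47 members, from 250 bases before to 50 after each start site. The NRF1 core letters GCATGCGC were present, on either strand, in 8 of these 36 (22.2%), against 2.71% of all 32851 promoters of the same length and 3.05% of the 27025 genes. The ETS letters CCGGAAG were present in 13 of 36 (36.1%), against 8.86% of all promoters and 9.93% of genes. The letters GGGCGG of the Sp1 box were present in 15 of 36 (41.7%), against 35.7% of promoters and 38.2% of genes. Those of the CCAAT box were present in 20 of 36 (55.6%), against 37.4% and 41.1%. TATAAA was present in 4 of 36 (11.1%), against 13.6% and 15.7%. NRF1 letters were held by Sdhb in complex II, Uqcrc1 and Uqcr11 in complex III, Cycs, Cox6a1 in complex IV and Atp5k, Atp5l and Atp5g2 in complex V. GCATGCGC partly matches its own reverse complement, so Atp5k, Atp5g2, Cox6a1 and Uqcrc1 each held overlapping matches on both strands. A match is a run of letters and not evidence of binding.

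The 150 bases before the start site are shown for members with these letters close to the start (Cycs, Sdhb, Atp5k and Atp5g2 with NRF1 letters, Sdhd with ETS letters) and for the members on which the comparisons below turn and which held neither set of letters in this stretch (Atp5pb, Cox7c and Atp5c1). Capitals mark the NRF1 or ETS letters. The stretches lie at chr6:50566570-50566719 (minus strand), chr4:140961121-140961270 (plus strand), chr5:108434400-108434549 (minus), chr15:102671048-102671197 (minus), chr9:50603850-50603999 (minus), chr3:105959264-105959413 (minus), chr13:86046796-86046945 (minus) and chr2:10080511-10080660 (minus) of GRCm38.p6, all directly upstream of an annotated start site, and each is written 5′ to 3′ on the strand of the gene. Atp5c1 had 2 promoter entries, of which the first is shown.
Cycs: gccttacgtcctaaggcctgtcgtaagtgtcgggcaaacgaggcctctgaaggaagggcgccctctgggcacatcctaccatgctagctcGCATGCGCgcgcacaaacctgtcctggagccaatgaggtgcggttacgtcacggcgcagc
Sdhb: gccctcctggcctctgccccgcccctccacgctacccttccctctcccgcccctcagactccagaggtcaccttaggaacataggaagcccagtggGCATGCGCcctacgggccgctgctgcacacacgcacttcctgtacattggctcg
Atp5k: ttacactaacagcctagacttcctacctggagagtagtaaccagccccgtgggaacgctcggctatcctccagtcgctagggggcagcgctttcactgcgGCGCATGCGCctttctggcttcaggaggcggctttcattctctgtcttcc
Atp5g2: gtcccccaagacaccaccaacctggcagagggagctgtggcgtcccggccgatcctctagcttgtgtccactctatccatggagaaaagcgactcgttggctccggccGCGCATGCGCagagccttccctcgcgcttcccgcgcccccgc
Sdhd: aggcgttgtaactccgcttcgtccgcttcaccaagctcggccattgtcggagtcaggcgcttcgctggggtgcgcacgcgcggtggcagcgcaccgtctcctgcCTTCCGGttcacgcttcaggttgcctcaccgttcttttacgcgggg
Atp5pb: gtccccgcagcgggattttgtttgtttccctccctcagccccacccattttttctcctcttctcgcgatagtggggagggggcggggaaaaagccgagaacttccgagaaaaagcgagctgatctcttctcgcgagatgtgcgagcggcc
Cox7c: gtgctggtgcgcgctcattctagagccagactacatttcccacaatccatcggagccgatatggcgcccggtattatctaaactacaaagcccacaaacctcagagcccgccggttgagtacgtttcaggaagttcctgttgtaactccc
Atp5c1: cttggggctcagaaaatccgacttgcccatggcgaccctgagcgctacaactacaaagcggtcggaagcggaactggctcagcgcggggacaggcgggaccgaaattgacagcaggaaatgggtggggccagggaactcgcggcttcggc

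Values were log2 signals from robust multi-array average (RMA) for 41345 probe sets, and differences below are on that log2 scale. The arrays of a group correlated between 0.965 and 0.995, and the mean SD of the members between arrays of a group was 0.20 in shMsl1_A, 0.16 in shcontrol_A, 0.23 in shNsl1_B and 0.16 in shcontrol_B. The targeted gene went against the labels in experiment A: Msl1 (probe set 17256162) read 6.77, 9.18 and 7.64 on the arrays labelled shMsl1_A 1, 2 and 3, against 8.56, 6.90 and 8.62 on those labelled shcontrol_A 1, 2 and 3. Kansl1 read 8.47, 8.92 and 9.30 in shNsl1_B and 9.14, 9.36 and 9.52 in shcontrol_B on its brighter probe set (17270621), where the groups overlapped, and 6.45, 6.56 and 6.71 in shNsl1_B and 7.33, 7.30 and 7.36 in shcontrol_B on the dimmer one (17547591), where they did not. The arrays of experiment A are therefore named as labelled, and the counts and medians of both comparisons that use shMsl1_A 2 and shcontrol_A 2 are also given without that pair. The cells expressed the embryonic stem cell markers Sox2, Nanog and Zfp42 on all 12 arrays (log2 signals of 10.86 or more). Other markers of that list were dimmer: Pou5f1 read 8.73 to 9.42, Esrrb 7.1 to 8.29 and Dppa5a only 5.02 to 5.53. The median of 21 feeder fibroblast markers was taken as a deviation from each gene's mean over the 12 arrays. It was -0.31, 0.22 and 0.18 on shMsl1_A 1, 2 and 3, and -0.22, -0.32 and -0.22 in shcontrol_A. It was -0.26, 0.40 and 0.28 in shNsl1_B, and -0.20, 0.29 and 0.05 in shcontrol_B.

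Seen by array, the members were highest on the 3 arrays labelled shcontrol_A and on shMsl1_A 1. The median deviation of the 47 members from their own means over the 12 arrays was 0.22, -0.04 and -0.01 on shMsl1_A 1, 2 and 3, against 0.17, 0.28 and 0.17 on shcontrol_A 1, 2 and 3. In experiment B it was 0.03, -0.15 and -0.31 on shNsl1_B 1, 2 and 3, against -0.04, -0.03 and -0.15 on shcontrol_B 1, 2 and 3. The array labelled shMsl1_A 1 lay within the range of shcontrol_A, and the array shNsl1_B 3 was the lowest of all 12, with 44 of 47 members under their mean. Between arrays of 1 group the shift could be as large as between groups: on shNsl1_B 3, 44 of 47 members were lower than on shNsl1_B 1, with a median difference of -0.38, whereas the median over all 22180 genes was -0.04. On the same 2 arrays of shNsl1_B, 32 of 34 complex I subunits (median -0.37) and 67 of 71 mitochondrial ribosomal proteins (-0.65) were lower too. On shMsl1_A 2 and on shMsl1_A 3, 37 of 47 members were lower than on shMsl1_A 1, with median differences of -0.24 and -0.23. Of all genes, 58.7% and 56.9% were lower, as were 30 and 28 of 34 complex I subunits and 65 and 64 of 71 mitochondrial ribosomal proteins. In shcontrol_A, 29 of 47 members were lower on array 1 than on array 2, against 46.7% of all genes, with a median difference of -0.11, the largest in that group.

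**Figure D1:**
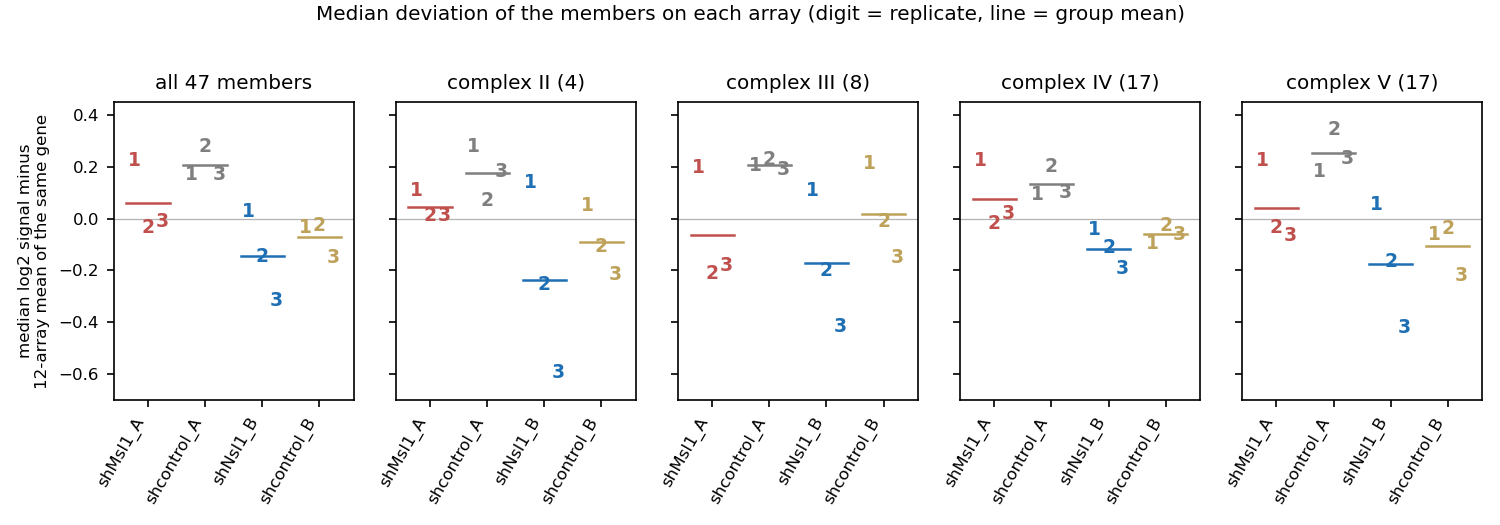
Median deviation of the members on each array, on the log2 scale (vertical axis), for all 47 members and for complexes II, III, IV and V, by group (horizontal axis). A digit is the replicate number and a line is the mean over the 3 arrays of a group. The array shNsl1_B 3 is lowest in every panel, at -0.31 for all members and -0.59 for complex II, and shMsl1_A 1 stands at or above the lowest shcontrol_A array in every panel.

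The fibroblast and stem cell marker lists moved with the same arrays. The 3 arrays labelled shcontrol_A and shMsl1_A 1, on which the members were highest (medians of 0.17 to 0.28), had fibroblast medians between -0.32 and -0.22 and medians of the 12 stem cell markers between 0.12 and 0.22. The arrays shMsl1_A 2 and 3 had fibroblast medians of 0.22 and 0.18 and stem cell medians of -0.39 and -0.23. Of the 21 fibroblast markers, 16 and 14 were above their means on shMsl1_A 2 and 3 and 3 on shMsl1_A 1, and the sum of the log2 signals over the list ran from 146 to 162 in shMsl1_A, 145 to 148 in shcontrol_A, 147 to 165 in shNsl1_B and 150 to 161 in shcontrol_B. The match was not complete, since shcontrol_B 1 had a fibroblast median of -0.20 with a member median of -0.04, and shcontrol_B 2 one of 0.29 with a member median of -0.03. The collagen gene Col1a1 read 9.83 and 9.49 on shMsl1_A 2 and 3 and 7.47 on shMsl1_A 1, whereas Lum, another fibroblast marker, stayed between 3.40 and 3.77 on all arrays. The part of these cells in the results below was not tested, and in such bulk RNA a smaller share of a cell type and less RNA per cell cannot be told apart.

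**Figure D2:**
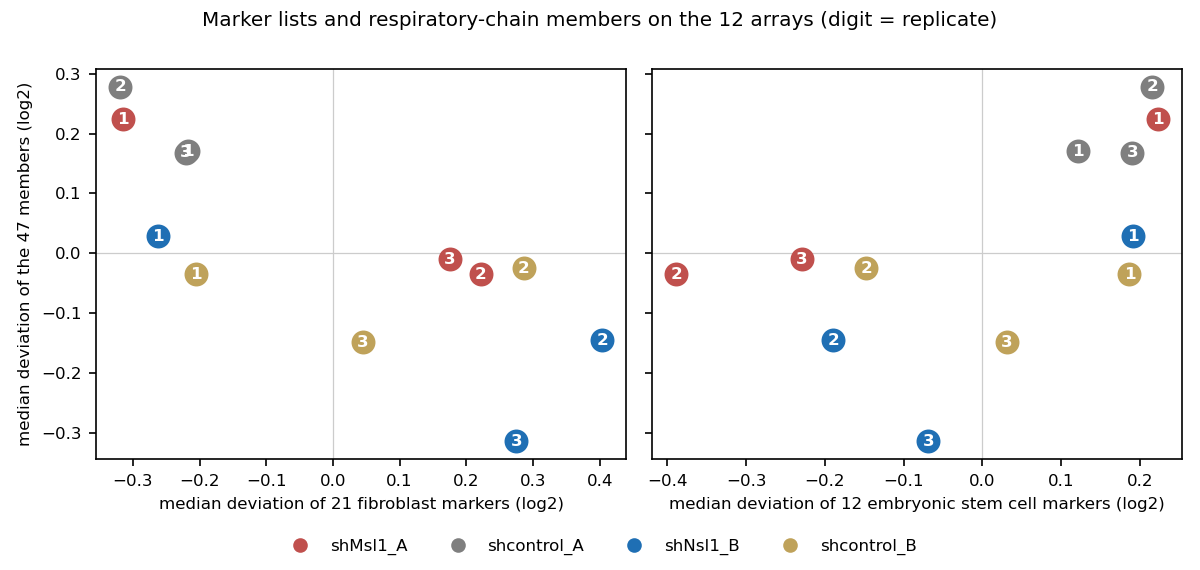
Median deviation of the 47 members (vertical axis, log2) against that of 21 fibroblast markers (left) and 12 embryonic stem cell markers (right) on the 12 arrays. Colour is the group and the digit is the replicate. The 4 arrays with the highest member medians (0.17 to 0.28) have fibroblast medians of -0.32 to -0.22, and shcontrol_A 1 and 3 nearly coincide in the left panel.

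The first comparison asked how the members stood after Msl1 KD as labelled. None of the 47 passed an adjusted p of 0.05 in limma, where 0% of all probe sets passed, and none had an unadjusted p under 0.05, against 7.65% of all probe sets. Most were nevertheless lower in shMsl1_A than in shcontrol_A: 40 of 47 had a negative log2 fold change, against 51.0% of all probe sets and 55.1% of the 22180 genes, and their median was -0.12, against -0.02 over the genes. Complex III had the lowest median (-0.21, with 8 of 8 below), followed by complex V (-0.15, 16 of 17), complex II (-0.07, 3 of 4) and complex IV (-0.04, 12 of 17), and Cycs was at -0.17. The groups did not overlap for 2 lower members, where 5.78% of probe sets did so, and for 1 higher member, against 6.38%. Neither share stands out from its background. With the fold change rank statistic that the study used, rebuilt here, 1.35% of probe sets were called lower and 1.66% higher, and no member was called.

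The members with the smallest p among those lower were Cox7a1, Atp5pb and Atp5mpl. Cox7a1, the form of a small complex IV subunit known from heart and skeletal muscle, read 8.82, 8.05 and 8.03 on shMsl1_A 1, 2 and 3, against 8.72, 8.91 and 8.81 on shcontrol_A 1, 2 and 3. Only shMsl1_A 2 and 3 were below all shcontrol_A arrays, and the means of 8.30 ± 0.45 and 8.81 ± 0.10 (SD, n = 3 each) differed by -0.52 ± 0.23 (SE; limma adjusted p = 0.622; exact permutation p = 0.3, two-sided). Atp5pb, subunit b of the peripheral stalk of ATP synthase, read 10.72, 10.67 and 10.72 in shMsl1_A, against 10.86, 10.82 and 10.89 in shcontrol_A. The groups did not overlap, by a difference of -0.15 ± 0.07 (adjusted p = 0.622; exact p = 0.1, the smallest that 3 against 3 arrays allow). Atp5mpl, the small proteolipid of ATP synthase, read 8.91, 8.71 and 8.62 in shMsl1_A, against 8.91, 9.68 and 9.01 in shcontrol_A. The groups met at 8.91 and did not cross. The difference was -0.46 ± 0.22 (adjusted p = 0.622), and -0.20 without shcontrol_A 2 and shMsl1_A 2.

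The members with the smallest p among those higher were Cox6a1, Cox8b and Sdha. Cox6a1, the widely expressed form of subunit 6A of complex IV, read 12.98, 12.91 and 12.92 in shMsl1_A, against 12.53, 12.89 and 12.78 in shcontrol_A, which did not overlap by a narrow margin (0.20 ± 0.11; adjusted p = 0.627). Cox8b, the heart and muscle form of subunit 8, was dim and read 4.56, 4.71 and 5.19 in shMsl1_A, against 4.75, 4.47 and 4.42 in shcontrol_A (0.27 ± 0.19; adjusted p = 0.660). Only shMsl1_A 3 stood apart. Sdha, the flavoprotein that oxidises succinate, read 10.80, 10.80 and 10.81 in shMsl1_A, against 10.80, 10.53 and 10.90 in shcontrol_A. Its small difference (0.06 ± 0.11; adjusted p = 0.868) was -0.04 without shcontrol_A 2, the lowest of the 6 arrays.

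The call depended on the array labelled shMsl1_A 1. Without it, 6 members passed, all lower: Atp5e (-0.93 ± 0.13, adjusted p = 0.0101), Cox7a1 (-0.77 ± 0.09, 0.00654), Sdhc (-0.54 ± 0.09, 0.0164), Uqcrq (-0.57 ± 0.14, 0.0411), Cyc1 (-0.48 ± 0.10, 0.0245) and Uqcrfs1 (-0.37 ± 0.08, 0.0336). These were 12.8% of the members, beside 16.4% of all probe sets (6771) called without the same array, so the members were called no more often than probe sets at large. Atp5e, the epsilon subunit in the central stalk of ATP synthase, read 9.09, 7.96 and 8.12 in shMsl1_A, against 8.75, 9.13 and 9.03 in shcontrol_A. Sdhc, a membrane anchor of succinate dehydrogenase, read 10, 9.34 and 9.42, against 9.94, 9.82 and 9.98, and Cyc1, the haem-bearing cytochrome c1 of complex III, read 11.35, 10.67 and 10.84, against 11.29, 11.17 and 11.24. In each of these 3 genes shMsl1_A 2 and 3 were below every shcontrol_A array and shMsl1_A 1 was not. The array shMsl1_A 1, which read like shcontrol_A in these genes, had the lowest Msl1 signal of its group. Without shMsl1_A 2 and shcontrol_A 2, whose Msl1 levels oppose their labels, no member passed, 34 of 47 were below and the median was -0.07.

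The second comparison asked the same of Nsl1 KD. No member passed an adjusted p of 0.05, where again 0% of probe sets passed, and 2 of 47 had an unadjusted p under 0.05, against 5.26% of probe sets. Of the 47, 31 were lower in shNsl1_B than in shcontrol_B, against 46.6% of probe sets and 50.3% of genes, and their median log2 fold change was -0.07. Complex II was at -0.18 (3 of 4 below), complex III at -0.14 (7 of 8), complexes IV and V both at -0.05 (9 of 17 and 11 of 17) and Cycs at -0.05. The groups did not overlap for 1 lower member (5.64% of probe sets) and 1 higher member (4.66%). The rank statistic called 3.36% of probe sets lower and 1.85% higher, and no member. Without shNsl1_B 3 the median over the members was 0.05, 17 of 47 were below, and complexes II and III were at 0.01 and 0.02. That fit kept the same-numbered shcontrol_B 3, the lowest array of its group (member median -0.15), which raises the difference. Without shcontrol_B 3 alone, 32 of 47 were below. A fit without both arrays was not run, so whether the direction rests on this pair was not tested.

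Uqcrc2, a core subunit of complex III, was the lower member whose groups did not overlap. It read 11.01, 11.04 and 10.77 in shNsl1_B, against 11.25, 11.29 and 11.18 in shcontrol_B, with means of 10.94 ± 0.15 and 11.24 ± 0.06 (SD, n = 3 each) and a difference of -0.30 ± 0.10 (adjusted p = 0.860; exact p = 0.1). All same-numbered pairs differed the same way, by -0.24, -0.25 and -0.41. Its partner core subunit Uqcrc1 read 11.23, 10.95 and 10.79, against 11.41, 11.24 and 11.09, with 2 of 3 shNsl1_B arrays below all of shcontrol_B (-0.26 ± 0.15). Cox7a2, the widely expressed partner of Cox7a1 in complex IV, read 10.90, 10.79 and 10.71, against 10.88, 11.02 and 10.99 (-0.16 ± 0.09). Uqcrc1 and Cox7a2 both had an adjusted p of 1.00.

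Atp5c1 was the higher member whose groups did not overlap. This gamma subunit, the rotor shaft of ATP synthase, read 7.76, 7.44 and 7.60 in shNsl1_B, against 7.29, 7.32 and 7.30 in shcontrol_B, with means of 7.60 ± 0.16 and 7.31 ± 0.02 (SD, n = 3 each) and a difference of 0.30 ± 0.11 (adjusted p = 0.873; exact p = 0.1). In experiment A it read 7.24, 7.19 and 7.09 in shMsl1_A, against 7.54, 7.20 and 7.23 in shcontrol_A. Sdha read 11.07, 11.10 and 10.80, against 10.86, 10.89 and 10.82 (0.13 ± 0.11), and so was the exception in complex II. Atp5j2, subunit f of ATP synthase, read 5.64, 5.52 and 5.73, against 5.57, 5.57 and 5.35 (0.13 ± 0.11), at a dim level where groups overlapped.

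Same-numbered arrays of experiment B moved together, so the fit with the replicate number as a block applies. With it, 5 members had an unadjusted p under 0.05 (Uqcrc2, Uqcrc1, Atp5c1, Sdhc and Atp5d, 10.6% of 47), against 14.9% of probe sets, and none passed the adjusted threshold, where 0% of probe sets passed. The smallest blocked adjusted p was 0.211, for Uqcrc2. The SEs and adjusted p given above for single members come from the fit without the block, which ignores this pairing. For Uqcrc1 the block gave an SE of 0.08 and an adjusted p of 0.249. In all 3 pairs, 10 of 47 members (21.3%) were lower in shNsl1_B, against 17.8% of probe sets and 22.9% of the 22180 genes. In all 3 pairs 2 members were higher, against 18.6% of probe sets and 4077 of the 22180 genes. A fit of all 12 arrays called 0.133% of probe sets after Nsl1 KD and 0% after Msl1 KD, and no member in either.

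**Figure D3:**
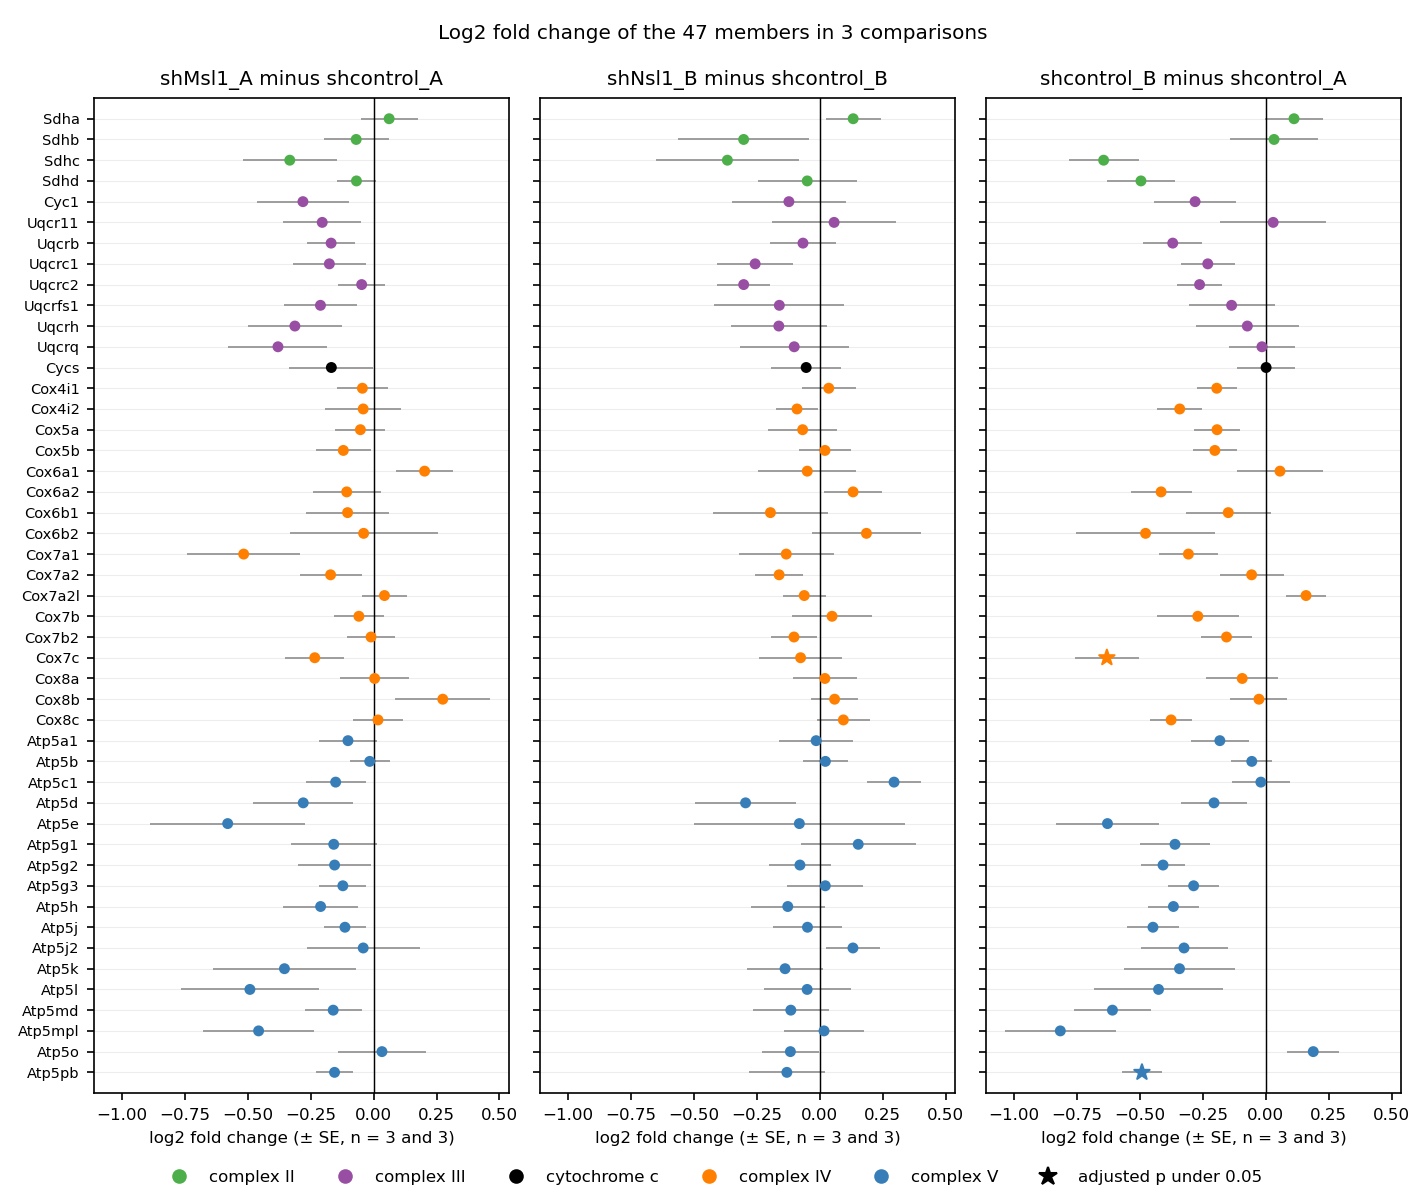
Log2 fold change (horizontal axis, point) with its SE (bar) of all 47 members, by complex, for shMsl1_A minus shcontrol_A, shNsl1_B minus shcontrol_B, and shcontrol_B minus shcontrol_A (n = 3 arrays each). A star marks an adjusted p under 0.05, which only Cox7c and Atp5pb reached, in the comparison of the control groups. Negative values prevail in the first panel (40 of 47) and the third (40 of 47), and less so in the second (31 of 47).

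The difference between both knockdown effects was tested on all 12 arrays. No member passed, where 4 probe sets (0.00967%) did, and 1 member had an unadjusted p under 0.05, against 6.45% of probe sets. With the replicate block 0% of probe sets passed. The member was Atp5c1, whose Nsl1 effect minus Msl1 effect was 0.45 ± 0.16 (adjusted p = 0.657). Next in order were Uqcrc2 (-0.25 ± 0.13, adjusted p = 0.823) and Atp5mpl (0.47 ± 0.29, 0.851), and Cox6a1 had the second smallest p among negative differences (-0.25 ± 0.24, 0.913). A negative difference was found for 13 of 47 members, against 48.9% of probe sets, and the median of 0.08 was near 0 (0.00) without shNsl1_B 1 and 0.18 without shNsl1_B 3. Without shMsl1_A 2 and shcontrol_A 2, 23 of 47 members had a negative difference and the median was 0.02, with 0 members called. No member was shown to respond differently to the 2 knockdowns.

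The controls of experiment B, set against those of experiment A, gave the widest shift of the members. Here 40 of 47 were lower in shcontrol_B than in shcontrol_A, against 54.7% of probe sets and 60.1% of genes, with a median of -0.26 against -0.07 over the genes. The shift was not particular to the members. Complex I subunits (31 of 34 lower, median -0.26) and assembly factors of complexes II to V (30 of 37, -0.23) shifted about as far. Mitochondrial ribosomal proteins shifted farther (65 of 71, -0.41). Complex V was at -0.36 (16 of 17 below), complex II at -0.23 (2 of 4), complex IV at -0.19 (15 of 17), complex III at -0.18 (7 of 8) and Cycs at 0.00. The groups did not overlap for 22 lower members (46.8%), against 22.0% of probe sets, and for 1 higher member, against 13.9%. Unadjusted, 19 of 47 had a p under 0.05, against 29.3% of probe sets. Of these, 2 passed the adjusted threshold, both lower, where 5.41% of all probe sets passed in either direction and 3.38% were lower. At 2 of 47 (4.26%) the called share was near that background. Experiment and control group cannot be told apart in this comparison. The reference also includes shcontrol_A 2, whose Msl1 level opposes its label. Without that array 40 of 47 members were still lower, and 0 members and 0 probe sets passed.

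The called members were Atp5pb and Cox7c. Atp5pb read 10.34, 10.43 and 10.33 in shcontrol_B, against 10.86, 10.82 and 10.89 in shcontrol_A, a difference of -0.49 ± 0.08 (71.1% of the shcontrol_A level; adjusted p = 0.0339). The shNsl1_B arrays read 10.47, 10.31 and 9.94, so all 6 arrays of experiment B lay below all 6 of experiment A in this gene. Cox7c, a small ubiquitous subunit of complex IV, read 6.28, 6.10 and 5.88 in shcontrol_B, against 6.62, 6.70 and 6.83 in shcontrol_A, a difference of -0.63 ± 0.13 (64.6%; adjusted p = 0.0459). It read 6.12, 6.18 and 5.74 in shNsl1_B and 6.68, 6.39 and 6.39 in shMsl1_A, again with no array of experiment B above any of experiment A. With the replicate number as a block both calls were lost (adjusted p = 0.0846 for Atp5pb and 0.0955 for Cox7c), and 0% of probe sets passed. That block pairs control arrays of separate experiments, which deviated together only weakly (r = 0.229, 0.107 and 0.242), so the pairing is uncertain. Leaving out shcontrol_B 1 gave 9 called members, all lower, beside 20.3% of probe sets, and leaving out any of the other 5 arrays gave 0 members and 0 probe sets in all.

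Of the members above 0, Cox7a2l and Atp5o had the smallest p. Cox7a2l, a factor that joins complexes III and IV into supercomplexes, read 8.26, 8.19 and 8.18 in shcontrol_B, against 8.07, 7.98 and 8.09 in shcontrol_A, and was the higher member whose groups did not overlap (0.16 ± 0.08; adjusted p = 0.239). Atp5o, the oligomycin sensitivity protein that ties the peripheral stalk to the catalytic head of ATP synthase, read 7.27, 7.25 and 7.44, against 7.09, 7.27 and 7.04 (0.19 ± 0.10; adjusted p = 0.271). The widest difference was that of Atp5mpl, at 8.25, 8.57 and 8.33 in shcontrol_B and 8.91, 9.68 and 9.01 in shcontrol_A (-0.82 ± 0.22; adjusted p = 0.0762), and it was not called. The other lower members without overlap in complex V were Atp5e, Atp5g1, Atp5g2, Atp5g3, Atp5h, Atp5j and Atp5md. Their log2 fold changes ran from -0.63 to -0.29 on the probe sets used. The dimmer probe sets of Atp5e and Atp5h were not lower (0.05 and 0.01).

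**Figure D4:**
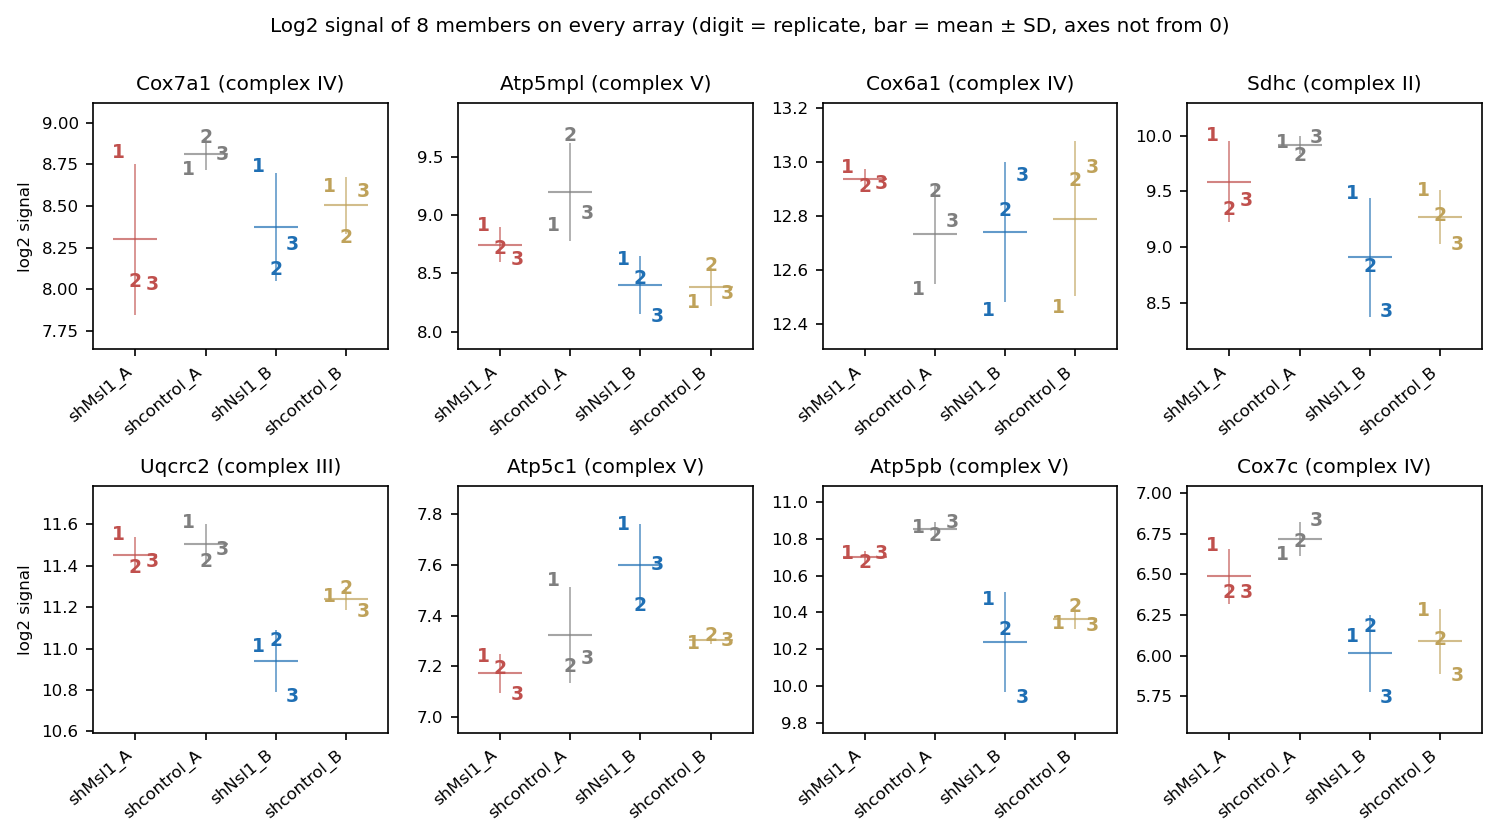
Log2 signal (vertical axis, not from 0) of 8 members on every array, by group. A digit is the replicate number and the cross is the mean with its SD (n = 3). Atp5pb and Cox7c lie lower in both groups of experiment B than in both of experiment A, Uqcrc2 and Atp5c1 are the members whose shNsl1_B and shcontrol_B arrays do not overlap, and in Cox7a1 and Sdhc the array shMsl1_A 1 lies with shcontrol_A.

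Complex II showed how its subunits could part. Its catalytic head is Sdha with the iron-sulphur protein Sdhb, and Sdhc and Sdhd anchor it in the membrane. Sdhb read 8.68, 8.82 and 8.78 in shMsl1_A, against 9.0, 8.58 and 8.91 in shcontrol_A, and 9.06, 8.47 and 8.15 in shNsl1_B, against 9.17, 8.67 and 8.75 in shcontrol_B. Its same-numbered pairs in experiment B were all lower after Nsl1 KD, but the groups overlapped (-0.30 ± 0.26; adjusted p = 1.00 without the replicate block). With the block its SE was 0.12 and its adjusted p was 0.339. Sdhc read 9.48, 8.82 and 8.42 in shNsl1_B, against 9.51, 9.28 and 9.02 in shcontrol_B (-0.37 ± 0.29), and of the 4 groups its arrays lay farthest apart in shNsl1_B. Sdhd read 9.72, 9.67 and 9.63 in shMsl1_A, against 9.78, 9.78 and 9.67 in shcontrol_A, and 9.48, 9.24 and 8.88 in shNsl1_B, against 9.45, 9.30 and 8.98 in shcontrol_B. Both anchors were lower in shcontrol_B than in shcontrol_A without overlap (Sdhc -0.64 ± 0.14, adjusted p = 0.0518; Sdhd -0.50 ± 0.14, 0.0793), whereas Sdha (0.11 ± 0.12) and Sdhb (0.03 ± 0.17) were not lower. Sdha had the narrowest range of the complex, 10.53 to 11.10 over the 12 arrays.

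Cytochrome c was read from the brightest of 5 probe sets. Cycs, which also triggers apoptosis once released from mitochondria, read 11.03, 11.46 and 11.51 in shMsl1_A, against 11.63, 11.28 and 11.58 in shcontrol_A (-0.17 ± 0.17; adjusted p = 0.751). It read 11.62, 11.55 and 11.17 in shNsl1_B, against 11.51, 11.54 and 11.45 in shcontrol_B (-0.05 ± 0.14), and the groups overlapped in both experiments. Unlike most members it was lowest on shMsl1_A 1. The other 4 probe sets, of which 2 held identical values, gave log2 fold changes from -0.34 to -0.00 after Msl1 KD and from -0.27 to -0.00 after Nsl1 KD, none called.

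Complex III had 8 measured members. Besides the core proteins Uqcrc1 and Uqcrc2 and the redox subunits Cyc1 and Uqcrfs1 (the Rieske iron-sulphur protein), these were the small subunits Uqcrb, Uqcrh, Uqcrq and Uqcr11. After Msl1 KD all were below 0, from -0.38 (Uqcrq) to -0.05 (Uqcrc2), and after Nsl1 KD all but Uqcr11 (0.06) were, down to -0.30. The order of the members was not kept: Uqcrc2 was the least shifted in experiment A and the most in experiment B. Per array the complex was at 0.20, -0.21 and -0.18 on shMsl1_A 1, 2 and 3, against 0.20, 0.23 and 0.19 in shcontrol_A, and at 0.11, -0.20 and -0.42 in shNsl1_B, against 0.21, -0.01 and -0.15 in shcontrol_B. Without shMsl1_A 1 its median after Msl1 KD was -0.35, and without shNsl1_B 1 that after Nsl1 KD was -0.32.

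Complex IV contains several subunits in alternative forms, and these were compared as sets. Cox4i1, the common form of subunit 4, read 11.06, 10.78 and 10.81 in shMsl1_A, against 10.89, 10.94 and 10.96 in shcontrol_A, and 10.95, 10.67 and 10.69 in shNsl1_B, against 10.80, 10.69 and 10.72 in shcontrol_B. Cox4i2, the form known from lung and from low oxygen, read 7.30, 6.86 and 6.83, against 6.92, 7.12 and 7.07, and 6.68, 6.59 and 6.55, against 6.74, 6.66 and 6.69, in the same order of groups. Neither form was called in either knockdown, with effects between -0.09 and 0.04, and both were lower in shcontrol_B than in shcontrol_A (-0.19 ± 0.08 and -0.34 ± 0.09) without passing (adjusted p = 0.169 and 0.0722). Of subunit 6A, Cox6a1 in experiment B read 12.45, 12.82 and 12.95 in shNsl1_B, against 12.46, 12.93 and 12.98 in shcontrol_B, following the replicate number and not the group. Its muscle form Cox6a2 was dim, at 5.52, 5.17 and 5.20 in shMsl1_A, against 5.42, 5.55 and 5.25 in shcontrol_A, and 5.13, 5.23 and 5.01 in shNsl1_B, against 5.16, 4.91 and 4.90 in shcontrol_B.

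Cox6b1, the common form of subunit 6B, read 9.92, 10.25 and 10.13 in shMsl1_A, against 10.45, 9.91 and 10.25 in shcontrol_A, and 10.30, 9.78 and 9.49 in shNsl1_B, against 10.21, 10.12 and 9.84 in shcontrol_B. Cox6b2, its testis form, read 8.34, 7.65 and 7.54 in shMsl1_A, against 7.51, 8.35 and 7.78 in shcontrol_A, and 7.71, 7.42 and 7.65 in shNsl1_B, against 7.15, 7.20 and 7.87 in shcontrol_B. With SDs up to 0.43 within a group, the groups overlapped in both knockdowns for both forms. Cox6b2 was -0.48 ± 0.28 in shcontrol_B against shcontrol_A (adjusted p = 0.295), again with overlap. Cox7a1 in experiment B read 8.74, 8.12 and 8.27 in shNsl1_B, against 8.62, 8.31 and 8.59 in shcontrol_B (-0.13 ± 0.19), and Cox7a2 in experiment A read 10.82, 10.85 and 10.88 in shMsl1_A, against 10.83, 11.25 and 10.98 in shcontrol_A (-0.17 ± 0.12). Cox7a2l read 7.99, 8.09 and 8.20 in shMsl1_A and 8.22, 8.15 and 8.07 in shNsl1_B, with effects of 0.04 and -0.06.

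Cox7b, on the X chromosome, read 11.58, 11.53 and 11.69 in shMsl1_A, against 11.58, 11.81 and 11.59 in shcontrol_A, and 11.41, 11.52 and 11.39 in shNsl1_B, against 11.06, 11.60 and 11.51 in shcontrol_B. Its testis form Cox7b2 was the dimmest reading of the set, between 3.28 and 3.68 on all arrays, a range at which no expression can be claimed. Cox8a, the common form of subunit 8, read 12.12, 11.81 and 11.90 in shMsl1_A, against 11.72, 12.04 and 12.05 in shcontrol_A, and 11.81, 11.99 and 11.81 in shNsl1_B, against 11.63, 12 and 11.90 in shcontrol_B. Cox8b in experiment B stayed between 4.48 and 4.69, and Cox8c, known from testis, between 4.02 and 4.65 over the 12 arrays. The 7 forms known mainly from other tissues (Cox4i2, Cox6a2, Cox6b2, Cox7a1, Cox7b2, Cox8b and Cox8c) were 5 of 7 below after Msl1 KD, 3 of 7 after Nsl1 KD and 7 of 7 in shcontrol_B against shcontrol_A. Without them the medians of the other 40 members were -0.15, -0.07 and -0.22 in these comparisons.

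Complex V held both the member with the lowest fold change after Msl1 KD (Atp5e, -0.58) and that with the lowest in shcontrol_B against shcontrol_A (Atp5mpl, -0.82). Of its catalytic head, Atp5a1 and Atp5b, the alpha and beta subunits that bind nucleotide, were -0.10 and -0.02 after Msl1 KD and -0.01 and 0.02 after Nsl1 KD. Atp5b read 13.07, 12.96 and 12.98 in shMsl1_A, against 13.09, 12.99 and 12.98 in shcontrol_A, and 13.07, 13.01 and 12.89 in shNsl1_B, against 13.01, 12.94 and 12.94 in shcontrol_B. The epsilon subunit Atp5e read 9.09, 8.18 and 7.51 in shNsl1_B, against 8.74, 8.28 and 8.0 in shcontrol_B, and differed by -0.08 ± 0.42 between these groups. The small membrane subunits Atp5k and Atp5l, known for their part in dimers of the enzyme, were -0.35 ± 0.28 and -0.49 ± 0.27 after Msl1 KD, with their highest values on shcontrol_A 2 (10.07 and 9.47). The subunits of the c ring come from 3 genes with the same mature protein. Atp5g1 read 6.36, 6.05 and 5.74 in shMsl1_A, against 6.05, 6.29 and 6.28 in shcontrol_A, and 6.42, 5.97 and 5.62 in shNsl1_B, against 5.96, 5.99 and 5.59 in shcontrol_B. Atp5g2 read 12.36, 11.87 and 11.96 in shMsl1_A, against 12.14, 12.31 and 12.22 in shcontrol_A, and 11.93, 11.73 and 11.54 in shNsl1_B, against 11.84, 11.86 and 11.74 in shcontrol_B. Atp5g3 read 10.23, 10.02 and 10.04 in shMsl1_A, against 10.23, 10.15 and 10.28 in shcontrol_A, and 10.17, 10 and 9.69 in shNsl1_B, against 10.02, 10.01 and 9.77 in shcontrol_B. All 3 ran from -0.16 to -0.12 after Msl1 KD and from -0.08 to 0.15 after Nsl1 KD, and from -0.41 to -0.29 in shcontrol_B against shcontrol_A, without a call.

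**Figure D5:**
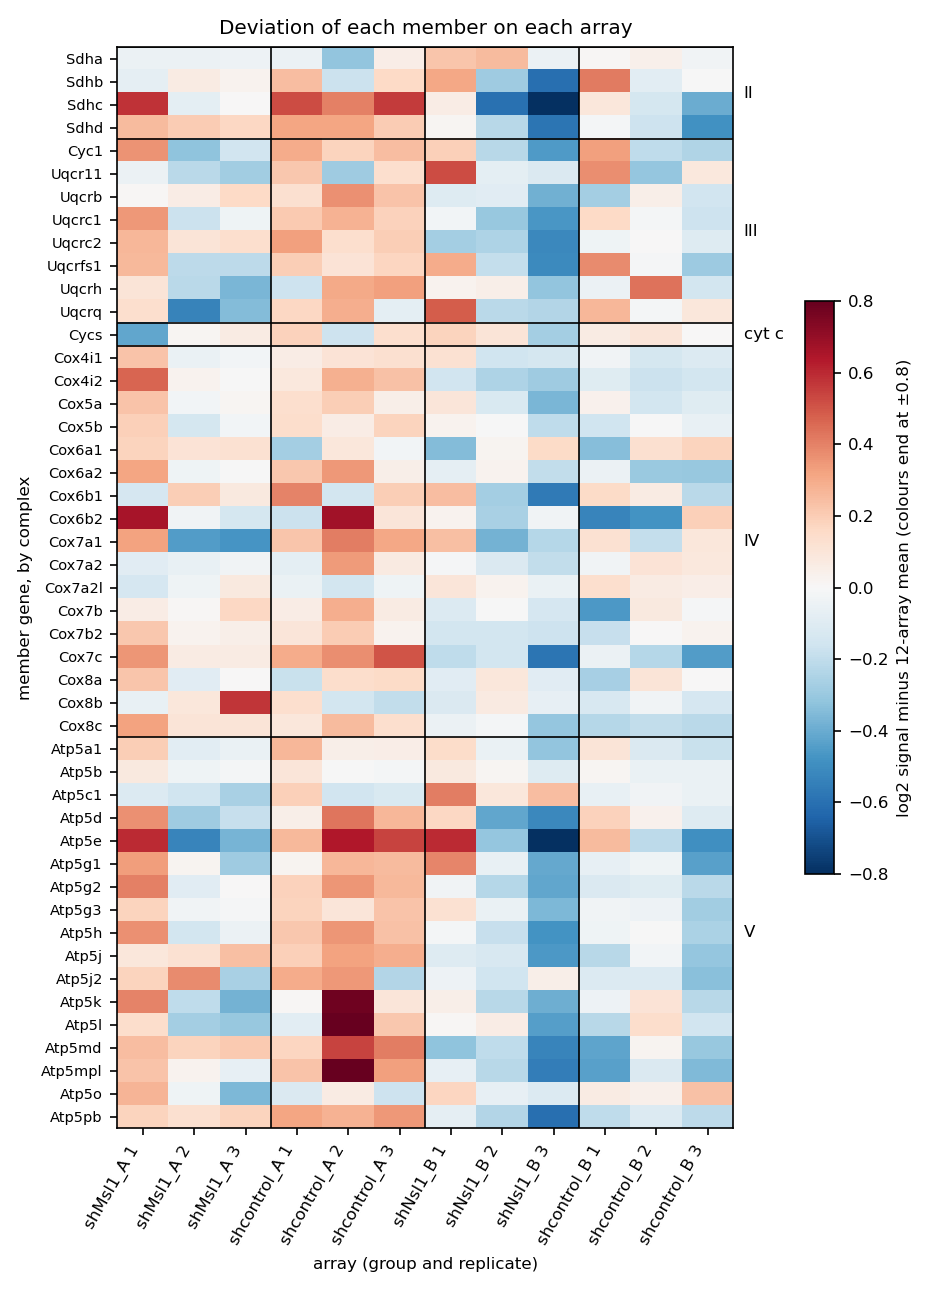
Deviation of each of the 47 members (rows, by complex) from its mean over the 12 arrays, on the log2 scale, with arrays in columns by group. Red is above and blue below the mean, with the scale shown beside it. The array shNsl1_B 3 is below the mean in 44 of 47 rows, and shMsl1_A 1 is above it in 38, as are shcontrol_A 1 and 2, with 39 for shcontrol_A 3.

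A gene with several probe sets can give several answers. Of the 7 such members, Atp5h, subunit d of the peripheral stalk, was -0.21 after Msl1 KD on the probe set used and 0.38 on the dimmer one, and Atp5e was -0.58 and -0.13. For Atp5g2 both probe sets lay close (-0.15 and -0.18). In shcontrol_B against shcontrol_A, Atp5e was -0.63 on the probe set used and 0.05 on the dimmer one. Atp5h was -0.37 and 0.01, and Atp5d -0.21 and 0.01. Cycs was 0.00 on the probe set used and from -0.54 to 0.15 on the others. Atp5g2, Cox5b and Cox7b were lower on both of their probe sets. Retrocopies of such genes are common in the mouse genome, and signal from them was not separated here.

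The nuclear genes that build or feed these complexes were counted in the same fits as whole lists, and those named below are the ones with the smallest p. Of 37 measured assembly factors of complexes II to V, 30 were lower after Msl1 KD (median -0.16) and 28 after Nsl1 KD (median -0.13), with 0 called in either. The smallest p was that of Pet100, a complex IV assembly factor, in both: -0.37 ± 0.08 after Msl1 KD (adjusted p = 0.622) and -0.69 ± 0.09 after Nsl1 KD (adjusted p = 0.304). Sdhaf3, which matures Sdhb, came next after Msl1 KD (-0.36 ± 0.10), and Fastkd2, a mitochondrial RNA-binding protein, after Nsl1 KD (-0.35 ± 0.09). Of 34 complex I subunits, 33 were lower after Msl1 KD and 25 after Nsl1 KD, with medians of -0.16 and -0.09, and of 71 mitochondrial ribosomal proteins, 65 and 60 were, with medians of -0.25 and -0.20, and 0 of either list was called. Of 13 regulators, Tfam, which packages mitochondrial DNA, had the smallest p after Msl1 KD (-0.27 ± 0.09, adjusted p = 0.622) and Polrmt, the mitochondrial RNA polymerase, after Nsl1 KD (-0.55 ± 0.08, adjusted p = 0.354). Of 12 enzymes of the tricarboxylic acid cycle, 8 were lower after Msl1 KD and 11 after Nsl1 KD (medians -0.06 and -0.19), none called.

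In shcontrol_B against shcontrol_A, the same lists gave 5 called of 37 assembly factors, 2 of 34 complex I subunits, 13 of 71 mitochondrial ribosomal proteins, 2 of 13 regulators and 0 of 12 cycle enzymes, all lower. Atpif1, the inhibitor of ATP synthase (-0.79 ± 0.13, adjusted p = 0.0340), and Coa7, a complex IV assembly factor (-0.97 ± 0.18, 0.0394), led the first list, and Yy1, a transcription factor that binds many such promoters (-0.43 ± 0.08, 0.0434), and the coactivator Ppargc1a (-0.54 ± 0.11, 0.0499) were the regulators. Each of these calls was made against a background of 5.41% of probe sets, and none was kept with the replicate block, under which no probe set passed. That block rests on an uncertain pairing of the control groups.

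Subunits from mitochondrial DNA were read in the same fits. Of the 13, 10 had a probe set of their own, and their median log2 fold change was 0.05 after Msl1 KD (1 of 10 below), -0.04 after Nsl1 KD (9 of 10 below) and 0.09 in shcontrol_B against shcontrol_A (2 of 10 below), with none called. CYTB, the mitochondrial core of complex III, read 13.06, 13.15 and 13.22 in shMsl1_A, against 13.11, 13.10 and 13.03 in shcontrol_A, and 13.06, 13.19 and 13.21 in shNsl1_B, against 13.04, 13.20 and 13.23 in shcontrol_B. COX1, the catalytic subunit of complex IV, read 13.18, 13.21 and 13.26 in shMsl1_A, against 13.24, 13.13 and 13.14 in shcontrol_A, and 13.19, 13.33 and 13.32 in shNsl1_B, against 13.25, 13.33 and 13.36 in shcontrol_B. The groups overlapped for COX1 in both experiments. COX2, ATP6 and ATP8 were not analysed here.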

How the data were processed

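Total RNA of 12 mESC samples was hybridised to Affymetrix Mouse Gene 2.0 ST arrays, 3 in each of 4 groups. The deposited values are log2 signals, which the authors obtained by RMA in Affymetrix Expression Console 1.1, and all columns were mapped to a sample by its label. No count or depth exists for arrays, and 3 arrays a group limit the precision. The methods call the 3 arrays independent biological replicas, while the labels only number them.

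Groups were compared in limma 3.58.1 (R 4.3.3; lmFit and eBayes, two-sided) over all 41345 probe sets, of which 23521 had 1 gene symbol, 1820 several and 16004 none, with Benjamini-Hochberg adjustment and a threshold of 0.05. Each knockdown was fitted on the 6 arrays of its experiment, the controls on theirs, and the difference of the effects on all 12. Single members also had an exact permutation test of 3 against 3 arrays, whose smallest p is 0.1. The fold change rank statistic used 9 pairs of arrays, a trim of 0.25 and limits of 0.025 and 0.975. Fits were tested on simulated data first. RefSeq promoters were matched by Entrez gene identifier.

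Members and gene lists were chosen with earlier results of these data known. Named members were those with the smallest p in each direction of each comparison (3 for a knockdown, 2 otherwise), complex II, Cycs and the sets of isoforms, and for other lists the genes with the smallest p. The same-numbered arrays of experiment B deviated together (r = 0.767, 0.326 and 0.704), whereas those of experiment A did not (0.0451, -0.226 and 0.210). Those of the control groups did so only weakly (0.229, 0.107 and 0.242), close in size to the highest value in experiment A. The number was taken to pair samples in experiment B and in the control groups, but only in the fit with the replicate block. The SEs and adjusted p given for members come from fits without that pairing unless the block is named. For the control groups this pairing is uncertain, since the labels do not link a replicate of experiment A with one of experiment B. Alternatives were the replicate block, each array left out, the 2 arrays against their labels left out, median scaling, probe sets with a mean under 6 left out, probe sets with 1 symbol only, the mean of a gene's probe sets, members without tissue isoforms, and a fit of all 12 arrays. Python 3.11.15 with pandas 2.3.3, scipy 1.17.1 and matplotlib 3.10.9 was used for the rest.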

Additional observations from a re-analysis of the deposited data

How the results depend on the processing

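With 3 arrays a group and signals near background for the 5 members with a mean under 6, small differences could not be resolved. After Msl1 KD 0 members passed in limma under every alternative but the one without shMsl1_A 1, so that leaving out an array gave 0 to 6 (6771 probe sets, 16.4%, passed without shMsl1_A 1), and the median ran from -0.19 to -0.10. After Nsl1 KD and for the difference of the effects 0 members passed under every alternative run, with medians from -0.13 to 0.05 and from 0.00 to 0.18 when an array was left out, and the fit of all 12 arrays called 55 probe sets after Nsl1 KD. For Sdha after Msl1 KD, leaving out an array gave values from -0.0443 (without shcontrol_A 2) to 0.142 (without shcontrol_A 3), and leaving out both arrays that oppose their labels gave -0.0437, and the cause was not tested.

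For shcontrol_B against shcontrol_A, 0 members passed with dim probe sets left out, where 0 of 18446 probe sets passed, 1 with median scaling, where the median was -0.33 and 1664 probe sets (4.02%) passed, and 10 when only probe sets with 1 symbol were tested, where 2917 probe sets (12.4%) passed. Leaving out an array gave 0 to 9 called members (9 without shcontrol_B 1, with 8382 probe sets called, and 0 without any one of the others, where 0 probe sets passed) and medians from -0.29 to -0.21. The cause of these changes was not tested. With the replicate block, which pairs same-numbered arrays, 0 members and 0 probe sets passed in each of the 4 comparisons. For the control groups this pairing is uncertain. The block leaves the medians (-0.12, -0.07, 0.08 and -0.26) as they are by construction. In experiment A, where the numbers share no deviation, the block changed no call.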
